A study of Homo sapiens with 4 samples.

Results

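Nuclear hormone receptor genes were followed in cells labelled as PC3, a prostate cancer line grown from a bone metastasis, that were hybridized to Affymetrix human gene arrays. The list held 46 receptor genes, picked by symbol as members of the receptor family, and does not hold every gene of that family. Of these, 39 were measured among the 18417 genes with a probe set named by a single symbol. RARA, NR1H2, NR1H4, NR1I2, HNF4A, NR2F2 and NR0B1, the other 7, were not analysed here because no such probe set was named for them. The tested cells, PC3-PDEF, were engineered to over-express PDEF (prostate-derived ETS factor, encoded by SPDEF), and the control cells, PC3-SCR (VC-PC3 in the study), carried empty pBABE vector. Each group had 2 arrays, all from snap-frozen cells grown in DMEM/F12 with serum, which brings hormones, retinoids and sterols to both groups. The sources used here do not say if replicate arrays go back to separate cultures, or if a line was 1 clone. The p-values therefore cover no more than array-to-array spread, and this may be technical.

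Nuclear receptors are transcription factors that read small lipophilic ligands. Most hold a DNA-binding domain of paired zinc fingers that reads a short motif such as AGGTCA, and a ligand-binding domain that recruits coactivators when an agonist is bound and corepressors when it is not. Steroid receptors are held by HSP90 chaperones until hormone arrives and then bind DNA as homodimers. The retinoic acid, thyroid hormone, vitamin D, PPAR and LXR receptors sit on DNA as heterodimers with an RXR partner. Orphan receptors, such as the REV-ERBs of the circadian clock, act without a classical hormone, some as constant repressors. In the prostate, steroid and retinoid receptors take part in luminal differentiation and growth.

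Before the receptors, the labels were checked against their defining genes. SPDEF had log2 signals of 6.85 and 6.73 in PC3-PDEF and of 5.99 and 6.06 in PC3-SCR, a log2 fold change of 0.77 (SE 0.088, adjusted p = 0.000563). CTNNA1, STAT3, STAT5B and STAT5A lie in regions known from other work to be deleted in PC3 cells. CTNNA1, STAT3 and STAT5B were higher in PC3-PDEF by 5.39, 4.45 and 2.88 on the log2 scale, with CTNNA1 at 9.76 and 9.86 in PC3-PDEF and at 4.77 and 4.07 in PC3-SCR, and STAT3 at 9.06 and 9.05 in PC3-PDEF and at 4.51 and 4.70 in PC3-SCR. STAT5A was below background in all arrays, at 4.40 and 4.43 in PC3-PDEF and 4.31 and 4.33 in PC3-SCR, and was not called (log2 fold change 0.10, adjusted p = 0.364). Without PC3-PDEF replicate 1 or 2 STAT5B kept log2 fold changes of 2.805 and 2.945, with adjusted p of 0.0652 and 0.0624. The signals of CTNNA1, STAT3 and STAT5B in the arrays labelled PC3-PDEF go against their PC3 label, and whether these arrays hold PC3 cells was not tested. In the receptor results, PDEF and a difference of cell line cannot be told apart. Of 13 prostate luminal genes, 10 were measured. Among these 1 rose and 3 fell, and the log2 of their summed signal was 10.61 and 10.64 in PC3-PDEF and 11.08 and 11.04 in PC3-SCR. The keratin genes KRT8 and KRT18 made up most of this sum in all arrays. KLK2, KLK3, KLK4, TRPM8 and ACP3, the gene that rose, were in both groups within the range of genes taken as background. Of 9 measured embryonic kidney genes, 3 rose and 2 fell (summed signal 9.66 and 9.57 in PC3-PDEF, 9.19 and 9.21 in PC3-SCR). Of 10 neuronal genes 4 rose and 1 fell (11.32 and 11.46 in PC3-PDEF, 9.57 and 9.53 in PC3-SCR). NEFM, at 10.69 and 10.89 in PC3-PDEF and 4.80 and 5.24 in PC3-SCR, made up most of the neuronal sum in PC3-PDEF. CHGA, STMN2, ELAVL4, NEFH and SYP were within the background range in all arrays. In the fibroblast list 0 of 9 genes rose and 4 fell (8.32 and 8.20 in PC3-PDEF, 9.27 and 9.07 in PC3-SCR). COL1A1, the brightest of them, had 7.29 and 7.10 in PC3-PDEF and 8.66 and 8.41 in PC3-SCR. The other 8 were within the background range in all arrays. In the leukocyte list 0 of 8 rose and 1, CD68, fell. CD68, a lysosomal gene that other cells also express, had 7.31 and 7.41 in PC3-PDEF and 9.60 and 9.48 in PC3-SCR and made up most of the summed signal (8.24 and 8.26 in PC3-PDEF, 9.85 and 9.76 in PC3-SCR). PTPRC, the pan-leukocyte marker, was within the background range in all 4 arrays. Their part in the receptor changes was not tested.

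The promoters of receptor genes described below are shown first, because each carries a motif for PDEF and its ETS relatives, for nuclear receptors or, in NR1D2, for CLOCK. The sequences are RefSeq entries of GRCh38.p14, read from 5′ to 3′. Those of NR6A1, PPARD and RARB run up to the base before an annotated start. RefSeq gives several starts for RARB and NR1D2, and for these genes the start used lies inside the gene and not at its outer end. In NR6A1 (chr9:124771312-124771561, minus strand) and PPARD (chr6:35342308-35342557, plus strand), which had the largest changes upward and downward among the measured receptors, capitals mark the ETS cores CGGAA and CGGAT, searched on both strands. PDEF is known to favour GGAT over the GGAA of most ETS factors.
NR6A1: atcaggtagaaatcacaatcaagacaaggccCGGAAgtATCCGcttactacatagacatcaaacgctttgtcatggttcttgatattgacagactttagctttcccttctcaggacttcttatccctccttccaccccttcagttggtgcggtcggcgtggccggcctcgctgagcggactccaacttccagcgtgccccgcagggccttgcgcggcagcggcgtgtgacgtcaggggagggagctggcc
PPARD: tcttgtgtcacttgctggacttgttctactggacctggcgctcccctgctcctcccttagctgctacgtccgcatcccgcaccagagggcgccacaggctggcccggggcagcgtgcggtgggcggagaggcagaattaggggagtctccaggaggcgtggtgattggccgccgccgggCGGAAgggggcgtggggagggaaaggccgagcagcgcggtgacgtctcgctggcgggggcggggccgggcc
In RARB (chr3:25428013-25428262, plus strand), capitals mark GTTCAC repeated after a gap of 5 bases, the arrangement that retinoic acid receptors bind and for which this promoter is the textbook case.
RARB: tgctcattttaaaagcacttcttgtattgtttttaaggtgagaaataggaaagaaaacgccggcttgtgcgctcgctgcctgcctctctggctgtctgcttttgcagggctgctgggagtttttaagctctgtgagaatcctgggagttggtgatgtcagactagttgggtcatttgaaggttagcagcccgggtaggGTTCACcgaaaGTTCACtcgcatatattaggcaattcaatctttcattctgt
In NR1D2, which encodes REV-ERBβ, stretches of 30 bases within the window of its inner start, 1 around each of 2 E-boxes (CACGTG, the site of CLOCK dimers), are shown, from chr3:23945954-23945983 and chr3:23946004-23946033, plus strand.
NR1D2 first E-box: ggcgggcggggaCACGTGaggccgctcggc
NR1D2 second E-box: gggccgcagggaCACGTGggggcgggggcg
Promoter windows of 250 bases were found for 34 of the measured receptor genes, 84 windows in all, since some genes have several starts. CGGAA stood in 23 of these windows (27.4%), against 30.3% of all 35116 windows, and CGGAT stood in 6 (7.14%), against 14.9%. AGGTCA was found in 12 windows (14.3%), against 12.1%, and CACGTG in 5 (5.95%), against 6.34%. The repeat of GTTCAC was found in 1 receptor window, that of RARB, and in 4 of all windows (0.0114%). A match is a description of letters, not of binding.

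Receptor genes changed in both directions. Called here means an adjusted p under 0.05 in limma over all genes. By this rule 10 of the 39 receptor genes rose in PC3-PDEF, 11 fell and 18 were not called. The called share was 53.8%, beside 50.7% of all 18417 genes (26.7% higher and 24.0% lower), so the family as a whole changed about as often as genes in general. Their median log2 fold change was -0.08, beside -0.05 for all genes. A change of at least 2-fold was found for 3 receptors upward (NR6A1, RORA and RARB) and 3 downward (PPARD, NR1D1 and PPARG). Of all genes 8.67% were called with at least a 2-fold rise and 6.07% with at least a 2-fold fall, 14.7% in all. In 33 receptors every PC3-PDEF array lay on the same side of both PC3-SCR arrays, beside 74.7% of all genes. Fits without 1 array leave a group with a single array that is assumed to vary like the other group, and they called 29.0% to 35.1% of all genes. A call lost in such a fit is therefore no sign of a smaller change. Without PC3-SCR replicate 1, 12 receptors were called, 4 of them higher (34.3% of all genes were called there), and without PC3-PDEF replicate 2, 13 were called, 6 higher and 7 lower. Without PC3-SCR replicate 2, 14 were called, 6 of them higher.

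Many receptors are low-abundance transcripts, and a gauge of background was therefore set by the highest of 341 olfactory receptor genes in each array, 5.65 and 5.75 in PC3-PDEF and 5.94 and 6.01 in PC3-SCR. Both arrays were above it for 20 receptors in PC3-PDEF and for 16 in PC3-SCR, and these 16 were among the 20. In the 16 receptors above it in all 4 arrays, 3 rose and 7 fell (62.5% called, beside 65.2% of the 8935 such genes, 35.9% higher and 29.4% lower). NR6A1, RARB, NR4A1 and NR3C2 passed only through PC3-PDEF, and since such genes are high there by this choice, no count is read over the 20. In the other 19 receptors, 4 rose and 4 fell, and sizes of change near background are not exact. Calls depended on level in general. Of the 10784 genes above the gauge in both arrays of a group 68.5% were called (39.9% higher and 28.5% lower), and of the other 7633 genes 25.6%. The counts of gene lists given below are set beside these shares, which are only a rough guide. The 10784 include genes that passed only through the group where they are high, and the list counts also cover dim genes. The share among genes above the gauge in all 4 arrays was the 65.2% given above. Olfactory receptor genes themselves had a median log2 fold change of -0.12, with 3 called higher and 42 lower, so small falls among dim receptors resemble those of genes taken as background. In bulk RNA a change per cell and a change in the share of cells cannot be told apart.

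**Figure D1:**
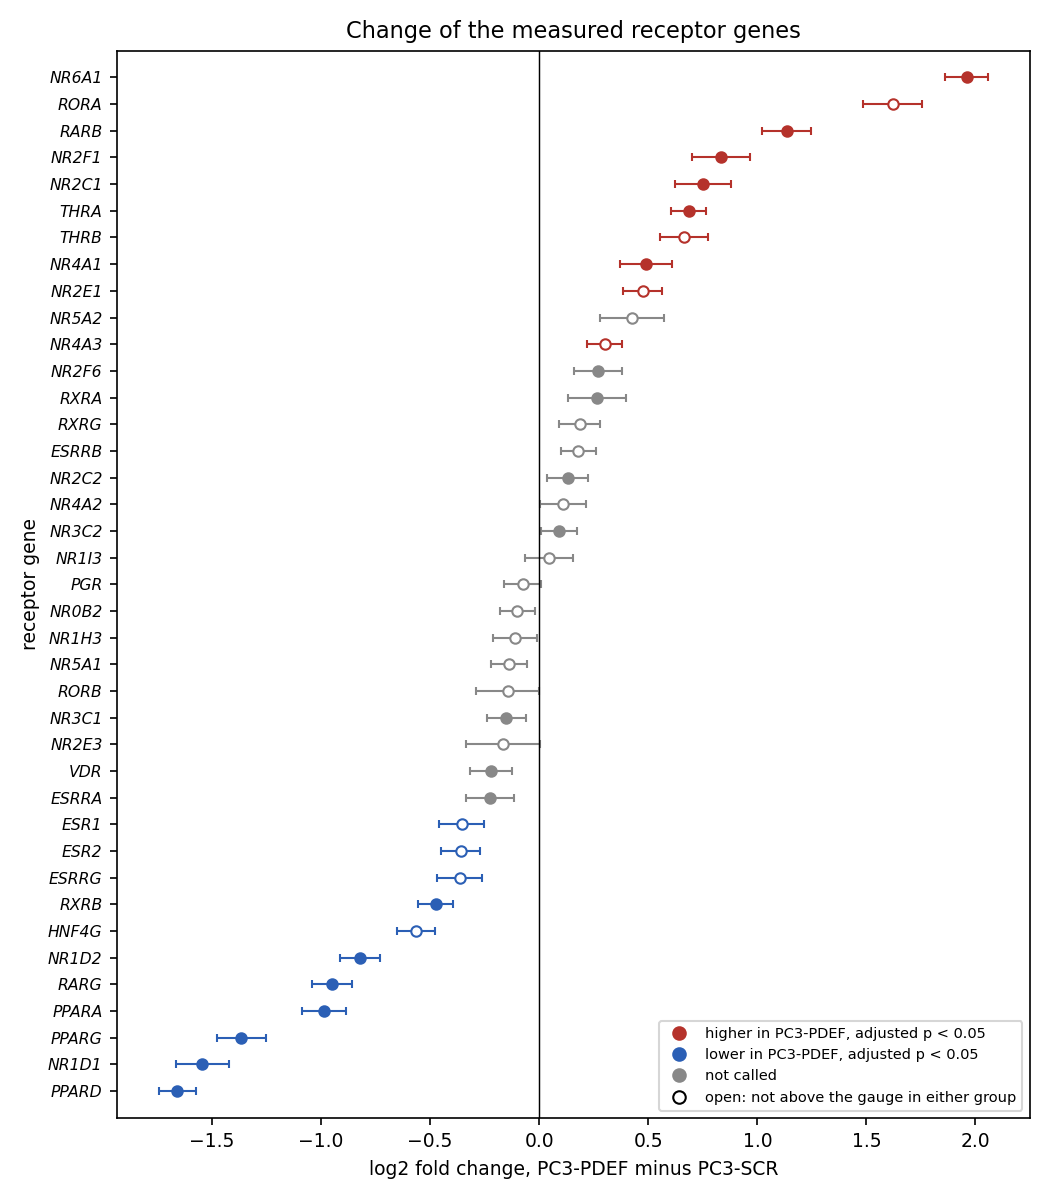
Log2 fold change between PC3-PDEF and PC3-SCR (horizontal axis) of each of the 39 measured receptor genes (vertical axis), where the bar is the standard error of the change and n = 2 arrays in each group. Red points were called higher, blue points lower and grey points were not called, and open points were not above the background gauge in both arrays of either group; NR6A1 lies highest at 1.96 and PPARD lowest at -1.66.

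All 3 PPAR genes fell. PPARs are fatty acid sensors that switch on lipid oxidation (PPARA, PPARD) or lipid storage (PPARG). PPARD had log2 signals of 6.62 and 6.71 in PC3-PDEF and of 8.35 and 8.30 in PC3-SCR, and fell by 1.66 on the log2 scale (SE 0.084, adjusted p = 2.11e-05), a 3.16-fold lower level. PPARG, the master regulator of fat cell formation, had 6.50 and 6.77 in PC3-PDEF against 8.03 and 7.97 in PC3-SCR. It fell by 1.36 (SE 0.11, adjusted p = 0.000127). PPARA, the receptor of the fasting response in liver, had 6.30 and 6.14 in PC3-PDEF against 7.28 and 7.13 in PC3-SCR, and fell by 0.98 (SE 0.10, adjusted p = 0.000329). The groups did not overlap for any PPAR gene, and all arrays were above the gauge. Genes that PPARs are known to activate did not fall together. Among the 16 measured of 18 such genes, 4 rose, 4 fell and 8 were not called, with a median log2 fold change of -0.08. Their called share was 50.0%, beside 50.7% of all genes. CPT1A, which imports fatty acids into mitochondria, had 8.26 and 8.37 in PC3-PDEF and 6.25 and 6.03 in PC3-SCR, and rose by 2.17 (SE 0.11, adjusted p = 1.76e-05). PDK4, a brake on glucose oxidation, rose by 1.43, the acyl-CoA synthetase gene ACSL1 by 1.37 and the beta-oxidation gene ACADM by 0.90. The 4 called lower were FABP4, ACADVL, EHHADH and ACOT1. ACADVL and EHHADH, also beta-oxidation genes, had log2 fold changes of -0.81 and -0.62 and were above the gauge in all arrays. FABP4 was below the gauge in all arrays. The beta-oxidation genes named here thus did not share 1 direction. PLIN2 and ANGPTL4 are widely used PPAR readouts. PLIN2 had a log2 fold change of -0.20, not called at an adjusted p of 0.150, and ANGPTL4 one of -0.18 at an adjusted p of 0.275. ANGPTL4 was below the gauge in all arrays, so it cannot show much of a change.

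**Figure D2:**
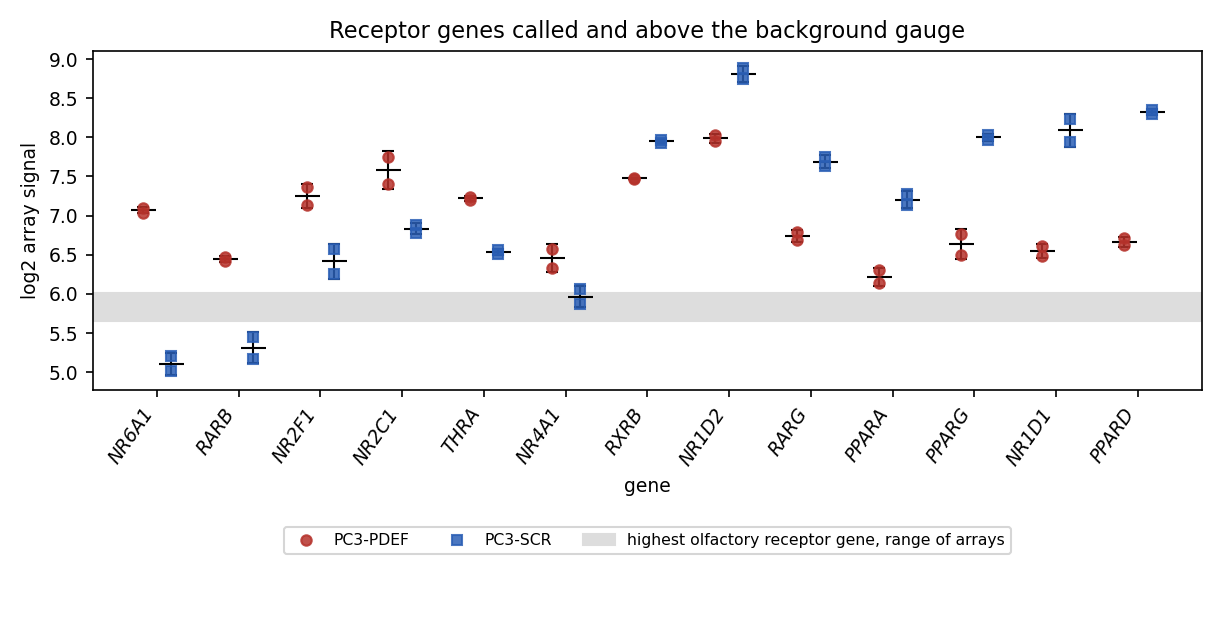
Log2 array signal (vertical axis) of the 13 receptor genes (horizontal axis) that were called and lay above the background gauge in both arrays of a group, in PC3-PDEF (red circles) and PC3-SCR (blue squares), where lines are means of 2 arrays and bars their SD. The grey band spans the highest olfactory receptor gene of the 4 arrays, 5.65 to 6.01; NR6A1 lies at 7.04 and 7.10 in PC3-PDEF, above it, and at 5.21 and 5.01 in PC3-SCR, below it.

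The measured retinoic acid receptor genes moved in opposite directions. RARB, itself a retinoic acid target through the repeat printed above and often lost in carcinomas, had 6.47 and 6.42 in PC3-PDEF and 5.17 and 5.45 in PC3-SCR. It rose by 1.14 (SE 0.11, adjusted p = 0.000293), with the PC3-SCR arrays not above the gauge. RARG, the main retinoic acid receptor of skin epithelium, had 6.79 and 6.69 in PC3-PDEF and 7.75 and 7.63 in PC3-SCR, and fell by 0.95 (SE 0.091, adjusted p = 0.000247). For both genes the groups did not overlap. Of the RXR genes, whose products are the common heterodimer partner, RXRB had 7.47 and 7.48 in PC3-PDEF and 7.93 and 7.97 in PC3-SCR, and fell by 0.48 (SE 0.080, adjusted p = 0.00304). RXRA had 6.64 and 6.75 in PC3-PDEF and 6.61 and 6.25 in PC3-SCR, where PC3-SCR replicate 1 was close to the PC3-PDEF arrays. Its log2 fold change of 0.27 was not called (adjusted p = 0.146, 95% interval -0.06 to 0.59). RXRG, near background, was not called either.

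Genes that make, carry and break down retinoic acid changed as well. Among the 15 measured of 18 such genes, 3 rose, 6 fell and 6 were not called, with a median log2 fold change of -0.20. Thus 60.0% were called, beside 50.7% of all genes. ALDH1A3, an aldehyde dehydrogenase that makes retinoic acid, had 7.87 and 7.71 in PC3-PDEF and 11.01 and 11.03 in PC3-SCR, and fell by 3.23 (SE 0.092, adjusted p = 3.49e-06). As the mean of its probe sets it had a log2 fold change of -2.545. STRA6, the cell surface receptor for retinol uptake, had 5.49 in both PC3-PDEF arrays, not above the gauge, and 7.03 and 7.01 in PC3-SCR, and fell by 1.53. ALDH1A2, a relative of ALDH1A3 with the same reaction, rose by 0.96, with PC3-SCR signals not above the gauge, and RDH10, which makes retinaldehyde, rose by 0.81. Their calls were lost without single arrays: ALDH1A2 had an adjusted p of 0.0613 without PC3-SCR replicate 1, and RDH10 of 0.0709 and 0.0708 without PC3-PDEF replicate 1 or 2, each of which left 1 gene of the list called higher. Among 14 measured genes that retinoic acid is known to induce, RARB left out, 3 rose, 5 fell and 6 were not called. The share called was 57.1%, beside 50.7% of all genes. TGM2, a transglutaminase, had 6.36 and 6.44 in PC3-PDEF and 9.46 and 9.17 in PC3-SCR, and fell by 2.92 (SE 0.12, adjusted p = 9.02e-06). PRDM1, which encodes a transcriptional repressor, fell by 1.70. MEIS1, a homeobox cofactor, had 6.92 and 6.93 in PC3-PDEF and 4.88 and 5.44 in PC3-SCR, and rose by 1.76 (adjusted p = 0.000305). Without PC3-PDEF replicate 1 or 2 its log2 fold change was 1.77 and 1.76 but no longer passed (adjusted p = 0.0520 and 0.0542), and each of these fits called 1 gene of the list higher. For DHRS3, a feedback gene of retinoic acid, the log2 fold change was -0.09 and was not called (adjusted p = 0.432). RARB and these targets thus did not share 1 direction.

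Both thyroid hormone receptor genes rose. THRA had 7.20 and 7.24 in PC3-PDEF and 6.56 and 6.51 in PC3-SCR, and rose by 0.69 (SE 0.081, adjusted p = 0.00063). THRB, with 5.02 and 5.28 in PC3-PDEF and 4.52 and 4.45 in PC3-SCR, rose by 0.67 (adjusted p = 0.00278), with all 4 arrays below the gauge. The THRB call was lost without PC3-SCR replicate 1 (adjusted p = 0.0659) or replicate 2 (adjusted p = 0.0783). VDR, the vitamin D receptor, had 6.10 and 6.20 in PC3-PDEF and 6.29 and 6.45 in PC3-SCR, groups that did not overlap. Its log2 fold change of -0.22 was not called (adjusted p = 0.101, 95% interval -0.45 to 0.01), but it was called lower after quantile normalization (adjusted p = 0.0367), after median centring (adjusted p = 0.0417) and among genes above the median level (adjusted p = 0.0436). In the handling of thyroid hormone and vitamin D, 11 of 13 listed genes were measured, of which 4 rose, 3 fell and 4 were not called. The share called was 63.6%, beside 50.7% of all genes. Without PC3-PDEF replicate 2 the number lower was 1, and after median centring it was 5. SLC16A10, a transporter of thyroid hormone and aromatic amino acids, had 8.27 and 8.03 in PC3-PDEF and 5.88 and 5.95 in PC3-SCR, and rose by 2.23 (SE 0.11, adjusted p = 1.67e-05). CYP2R1, the main vitamin D hydroxylase of liver, rose by 1.67, and CYP27A1, a sterol hydroxylase that can also act on vitamin D, fell by 2.33 to 4.32 and 4.81, not above the gauge, in PC3-PDEF, against 7.02 and 6.76 in PC3-SCR. Of 12 vitamin D targets, 0 rose, 4 fell and 8 were not called, so that 33.3% were called, beside 50.7% of all genes. In this list 9 genes were not above the gauge in either group, where 25.6% of all genes were called. IGFBP3, whose product binds insulin-like growth factors in blood and tissue, fell by 3.52, the thrombomodulin gene THBD to 6.64 and 6.94 in PC3-PDEF, against 9.31 and 9.12 in PC3-SCR, and the protease inhibitor gene SERPINB1 fell by 1.28. CYP24A1, the most specific vitamin D target, was below the gauge in all arrays (log2 fold change -0.42, adjusted p = 0.0579).

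NR1H3 encodes LXRα, a sterol sensor, and was 5.91 and 5.75 in PC3-PDEF and 6.02 and 5.86 in PC3-SCR, overlapping and close to the gauge. Its log2 fold change of -0.11 was not called (adjusted p = 0.409, 95% interval -0.36 to 0.14). Of 11 measured LXR targets, 5 rose, 1 fell and 5 were not called, with a median log2 fold change of 0.08. Thus 54.5% were called, beside 50.7% of all genes. The count lower was 2 after quantile normalization or median centring, and 0 without PC3-SCR replicate 1 or 2 or PC3-PDEF replicate 2. SMPDL3A, a phosphodiesterase gene, rose by 2.39 to 6.29 and 6.50 in PC3-PDEF, against 4.09 and 3.92, below the gauge, in PC3-SCR. LPCAT3, a phospholipid-remodelling enzyme gene, had 9.61 and 9.60 in PC3-PDEF and 8.19 and 8.01 in PC3-SCR, and rose by 1.50 (SE 0.094, adjusted p = 4.46e-05). MYLIP, whose product degrades the LDL receptor, rose by 1.38, and the fatty acid synthase gene FASN by 1.03. The cholesterol exporter genes ABCA1 and ABCG1, the best known LXR targets, were not called. ABCA1 had a log2 fold change of 0.08 at an adjusted p of 0.444, and ABCG1 one of -0.10 at an adjusted p of 0.616. ABCG1 was below the gauge in all arrays, and ABCA1 was above it only in PC3-PDEF replicate 1. Neither can therefore show much of a change. NR1I3, which encodes the xenobiotic receptor CAR, was below the gauge and not called.

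Genes of the REV-ERB repressors fell, along with most of the circadian clock list. NR1D1 (REV-ERBα) had 6.48 and 6.61 in PC3-PDEF and 8.24 and 7.94 in PC3-SCR, and fell by 1.54 (SE 0.12, adjusted p = 0.00011), a 2.92-fold lower level. NR1D2, whose E-boxes are printed above, had 7.95 and 8.03 in PC3-PDEF and 8.74 and 8.88 in PC3-SCR. It fell by 0.82 (SE 0.091, adjusted p = 0.000479). The promoter window of NR1D1, which fell more, held no CACGTG. Of the receptor windows, CACGTG stood in 3 of 34 of genes called lower, 1 of 17 of genes called higher (NR2C1) and 1 of 33 of uncalled genes. Whether E-boxes take part in these changes was not tested. RORA encodes an activator that competes with the REV-ERBs for the same DNA element. It had 5.12 and 5.47 in PC3-PDEF and 3.59 and 3.76 in PC3-SCR, and rose by 1.62 (SE 0.14, adjusted p = 0.000143). Its 4 arrays were all below the gauge, so the size of this change is not exact. RORB was below the gauge and was not called (adjusted p = 0.437). NR1D1 lies next to THRA on the opposite strand of chromosome 17, and the 2 genes overlap at their ends in GRCh38.p14. NR1D1 fell while THRA rose, and whether probes of the shared stretch enter either probe set was not tested.

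All 16 clock genes listed were measured, of which 11 fell, 2 rose and 3 were not called (81.2% called). Of these genes 15 were above the gauge in a group, and of all such genes 68.5% were called and 28.5% were lower. The clock list had a median log2 fold change of -0.50. CLOCK, the E-box activator, had 7.04 and 7.24 in PC3-PDEF and 8.99 and 9.08 in PC3-SCR, and fell by 1.90 (SE 0.10, adjusted p = 2.47e-05). NPAS2, the CLOCK paralog, fell by 1.94. BMAL2, a BMAL1 paralog, fell to 8.33 and 8.49 in PC3-PDEF, against 10.40 and 10.41 in PC3-SCR. BHLHE40, an E-box repressor, had 8.12 in both PC3-PDEF arrays and 10.34 and 10.24 in PC3-SCR, and fell by 2.17 (SE 0.084, adjusted p = 8.22e-06). CIART, another repressor of CLOCK dimers, fell by 2.64 to 5.58 and 5.08, not above the gauge, in PC3-PDEF, against 7.98 and 7.96 in PC3-SCR. PER1, PER2, PER3, CRY1, DBP and BHLHE41 fell by 0.35 to 1.28. BMAL1, the gene that REV-ERBs repress and RORs activate, had 6.41 and 6.22 in PC3-PDEF and 5.95 and 6.08 in PC3-SCR. Its groups did not overlap, and its log2 fold change of 0.30 just missed the threshold (SE 0.10, adjusted p = 0.0501). NFIL3, another gene known to be repressed by REV-ERBs, had 8.24 and 8.43 in PC3-PDEF and 7.37 and 7.03 in PC3-SCR. It rose by 1.14 (SE 0.14, adjusted p = 0.000654). Genes that REV-ERBs repress were not gathered as a list, and clock genes that fell may be among them. No direction of such genes is read from BMAL1 and NFIL3. Without single arrays 6 to 10 of the 16 were called lower, 7 without PC3-SCR replicate 1 or PC3-PDEF replicate 1 and 6 without PC3-PDEF replicate 2. The number called higher was then 1, or 0 without PC3-PDEF replicate 2. The time at which cells were frozen is not given for either group, so a difference in clock phase cannot be told apart from a difference in level.

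**Figure D3:**
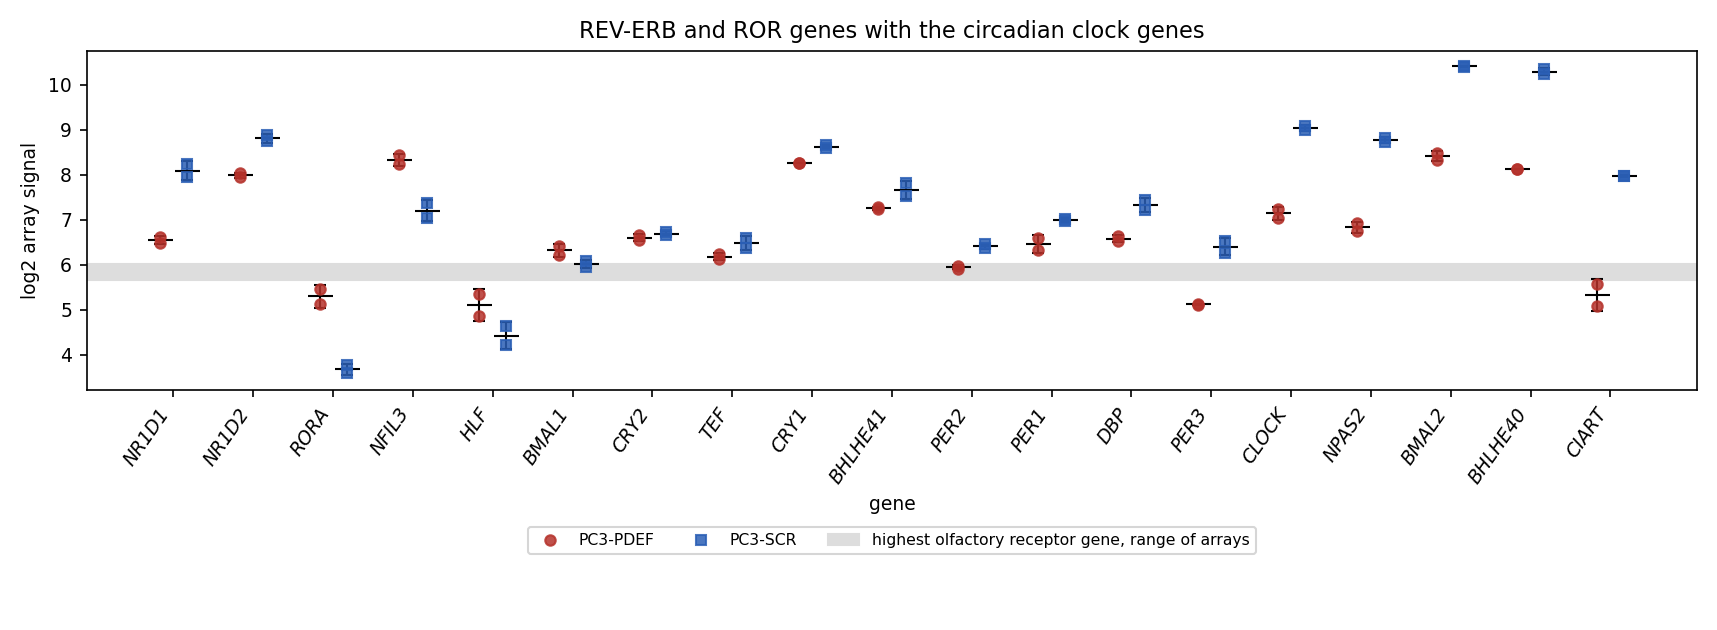
Log2 array signal (vertical axis) of NR1D1, NR1D2 and RORA and of the 16 circadian clock genes (horizontal axis) in PC3-PDEF (red circles) and PC3-SCR (blue squares), where lines are means of 2 arrays and bars their SD. The grey band spans the highest olfactory receptor gene of the 4 arrays; 11 of the 16 clock genes were called lower in PC3-PDEF, down to CIART with a log2 fold change of -2.64, and NFIL3 and HLF were called higher.

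Among the other orphan receptors, NR6A1, NR2F1 and NR2C1 rose. NR6A1 encodes GCNF, a repressor that in mouse embryos silences the pluripotency gene Oct4. With 7.04 and 7.10 in PC3-PDEF and 5.21 and 5.01 in PC3-SCR, it rose by 1.96 (SE 0.099, adjusted p = 2.04e-05), a 3.89-fold higher level. Its PC3-SCR arrays were below the gauge, so this size is not exact. NR2F1 encodes COUP-TFI, which patterns the nervous system, and had 7.36 and 7.14 in PC3-PDEF and 6.26 and 6.57 in PC3-SCR. It rose by 0.84 (SE 0.13, adjusted p = 0.00241), and this call was lost without PC3-SCR replicate 1 (adjusted p = 0.0561) and without PC3-PDEF replicate 1 or 2 (adjusted p = 0.0891 and 0.0615). NR2C1, which encodes the testicular receptor TR2, had 7.41 and 7.75 in PC3-PDEF and 6.78 and 6.88 in PC3-SCR. It rose by 0.75 (SE 0.13, adjusted p = 0.0032), a call lost without PC3-SCR replicate 1 (adjusted p = 0.0952) or replicate 2 (adjusted p = 0.0768).

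Their relatives moved less. NR2C2, the TR4 gene, had 8.11 and 8.25 in PC3-PDEF and 8.11 and 7.99 in PC3-SCR, with a log2 fold change of 0.13 that was not called (adjusted p = 0.299, 95% interval -0.10 to 0.36). NR2F6, a COUP-TF relative that represses cytokine genes in T cells, had 7.97 and 7.70 in PC3-PDEF and 7.57 and 7.56 in PC3-SCR, and its groups did not overlap. Its log2 fold change of 0.27 was not called (adjusted p = 0.0855), but it was called higher with an intensity trend in the fit (adjusted p = 0.0389) and among genes above the median level (adjusted p = 0.0360). ESRRA, a regulator of mitochondrial genes, had 7.83 and 7.66 in PC3-PDEF and 8.07 and 7.87 in PC3-SCR. Its log2 fold change was -0.22 (adjusted p = 0.133, 95% interval -0.49 to 0.04), and after quantile normalization it was called lower (adjusted p = 0.0428). In its mitochondrial target list 12 genes were measured, of which 3 rose, 2 fell and 7 were not called. All 12 were above the gauge in all 4 arrays, and 41.7% were called, beside 65.2% of all such genes. The number lower was 4 after quantile normalization, 1 without PC3-SCR replicate 2 and 0 without PC3-SCR replicate 1, PC3-PDEF replicate 1 or PC3-PDEF replicate 2, and the number higher was 1 without PC3-PDEF replicate 2. The isocitrate dehydrogenase gene IDH3A had 10.61 and 10.63 in PC3-PDEF and 9.35 and 9.37 in PC3-SCR, and rose by 1.26 (SE 0.080, adjusted p = 4.62e-05). GABPA, itself an ETS factor of mitochondrial genes, rose by 0.70, and MDH2, a malate dehydrogenase gene, by 0.34. COX8A, a cytochrome oxidase subunit gene, fell by 0.71. These last 3 calls were each lost in fits without 1 array (GABPA with an adjusted p of 0.0607 without PC3-SCR replicate 1 and 0.0535 without PC3-PDEF replicate 2, MDH2 from 0.0745 to 0.0988 without PC3-SCR replicate 2 or either PC3-PDEF array, COX8A from 0.0559 to 0.0954 without PC3-SCR replicate 1 or either PC3-PDEF array).

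NR4A1 (NUR77), an immediate-early gene that acts without ligand, had 6.58 and 6.33 in PC3-PDEF and 6.06 and 5.87 in PC3-SCR, groups that did not overlap. It rose by 0.49 (SE 0.12, adjusted p = 0.0144), and the call was lost in all 4 fits without 1 array (adjusted p from 0.0665, without PC3-PDEF replicate 2, to 0.155, without PC3-SCR replicate 2). NR4A3 (NOR1) rose by 0.30 (adjusted p = 0.0207) below the gauge, with signals of 5.41 in both PC3-PDEF arrays and of 5.13 and 5.09 in PC3-SCR. It also passed in none of the fits without 1 array (adjusted p from 0.0613 to 0.0891) and had an adjusted p of 0.0623 with an intensity trend. NR4A2 (NURR1) was below the gauge and was not called (adjusted p = 0.420).

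Of the 5 steroid receptor genes, 0 rose, 2 fell and 3 were not called in limma, and 3 of the 5 were below the gauge in all arrays. Their median absolute log2 fold change was 0.15, beside 0.18 for all genes not above the gauge and 0.30 for all genes. NR3C1, the glucocorticoid receptor gene, had 8.10 and 8.24 in PC3-PDEF and 8.34 and 8.30 in PC3-SCR. The groups did not overlap, and its log2 fold change of -0.15 was not called (SE 0.089, adjusted p = 0.210, 95% interval -0.37 to 0.07). NR3C2, the mineralocorticoid receptor gene, had 5.91 and 5.88 in PC3-PDEF, just above the gauge, and 5.84 and 5.77 in PC3-SCR, below it (log2 fold change 0.09, adjusted p = 0.402). ESR1 and ESR2, the estrogen receptor genes, were below the gauge in all arrays, at 3.95 to 4.49 in PC3-PDEF and 4.26 to 4.84 in PC3-SCR. They fell by 0.35 (adjusted p = 0.0276) and 0.36 (adjusted p = 0.0153), and neither call held in any of the 4 fits without 1 array (adjusted p from 0.0543 to 0.206 for ESR1 and from 0.0659 to 0.109 for ESR2). The ESR1 call was also lost after quantile normalization (adjusted p = 0.0635) and as the mean of its probe sets (adjusted p = 0.125), and the ESR2 call with the replicate number as a block (adjusted p = 0.0553). PGR, the progesterone receptor gene, lay between 3.40 and 3.53 in all arrays and was not called.

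Glucocorticoid targets changed in both directions, while NR3C1 itself was not called. Among the 14 measured of 16 such genes, 5 rose, 7 fell and 2 were not called (85.7% called), with a median log2 fold change of -0.36. In this list 13 genes were above the gauge in a group, where 68.5% of all genes were called. MT2A, a metallothionein gene, had 9.95 and 10.02 in PC3-PDEF and 12.48 and 12.44 in PC3-SCR, and fell by 2.47 (SE 0.082, adjusted p = 5.08e-06). TNFAIP3 and NFKBIA, brakes on NF-kB that NF-kB itself also induces, fell. TNFAIP3 fell by 2.28, and NFKBIA had 7.42 and 7.33 in PC3-PDEF, against 9.54 and 9.37 in PC3-SCR. ERRFI1, a feedback inhibitor of EGFR, fell by 1.52. TSC22D3 (GILZ) rose by 1.47, PDK4 by 1.43, SLC19A2 by 1.26, KLF9 by 0.86 and ZBTB16 by 0.61, which are all 5 that rose. The other 3 that fell were the phosphatase gene DUSP1, by 0.98, the kinase gene SGK1, at 5.66 and 5.62 in PC3-PDEF against 6.29 and 6.18 in PC3-SCR, and PER1, by 0.53. Apart from PDK4, these genes were named after their values were seen. Of the 10 estrogen targets measured, PGR left out, 3 rose, 4 fell and 3 were not called, and without PC3-PDEF replicate 1 or 2 the number higher was 1. The called share of the estrogen targets was 70.0%, beside 50.7% of all genes. IGFBP4, from the same gene family as IGFBP3, had 7.57 and 7.62 in PC3-PDEF and 11.06 and 10.83 in PC3-SCR, and fell by 3.35 (SE 0.10, adjusted p = 4.21e-06). The cyclin gene CCND1 fell by 0.86 and the carbonic anhydrase gene CA12 by 0.67. MYB, a proto-oncogene transcription factor, rose by 1.82 to 6.32 and 6.12 in PC3-PDEF, against 4.34 and 4.45, below the gauge, in PC3-SCR.

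Of the genes of enzymes that make or clear steroids, 42.1% were called, beside 50.7% of all genes, and 11 of the 19 measured were not above the gauge in either group. Among the 19 measured of 21 such genes, 0 rose, 8 fell and 11 were not called by limma, but 2 rose with an intensity trend in the fit and 1 among genes above the median level. The number lower was 5 without PC3-SCR replicate 2 and 4 without any other single array. The largest falls were those of AKR1C3, which makes testosterone from androstenedione, and AKR1C1, which inactivates progesterone. AKR1C3 had 4.22 and 4.53 in PC3-PDEF, not above the gauge, and 8.01 and 7.82 in PC3-SCR, and fell by 3.54 (SE 0.13, adjusted p = 6.75e-06). AKR1C1 had 4.37 and 4.35 in PC3-PDEF, also not above the gauge, and 7.70 and 7.72 in PC3-SCR, and fell by 3.35 (SE 0.080, adjusted p = 2.85e-06). As the mean of its probe sets AKR1C1 had a log2 fold change of -2.12. AKR1C genes are close copies of one another, so probes may be shared between them. H6PD, which supplies NADPH to cortisol-regenerating HSD11B1, fell by 0.71, a call lost without PC3-SCR replicate 1 (adjusted p = 0.0989) or replicate 2 (adjusted p = 0.106). The other 5 genes called lower were below the gauge in both groups.

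The dim receptors made up the rest. NR2E1 (TLX), a regulator of neural stem cells, rose by 0.48, to 4.19 and 4.33 in PC3-PDEF, against 3.78 and 3.79 in PC3-SCR (adjusted p = 0.00475), and its call was lost without PC3-SCR replicate 1 or 2 and without PC3-PDEF replicate 2 (adjusted p from 0.0530 to 0.0629). HNF4G, a relative of the liver factor HNF4A, had 5.12 and 5.03 in PC3-PDEF and 5.69 and 5.59 in PC3-SCR, and fell by 0.56 (adjusted p = 0.00211, and 0.0515 without PC3-PDEF replicate 2). ESRRG fell by 0.36 (adjusted p = 0.0266). It was also lower in all 4 fits without 1 array, after quantile normalization and with the replicate number as a block, but did not pass the threshold there (adjusted p from 0.0722 to 0.181, 0.0712 and 0.0931). NR5A2 (LRH-1) had 4.81 and 4.86 in PC3-PDEF and 4.19 and 4.63 in PC3-SCR, and its log2 fold change of 0.42 was not called (adjusted p = 0.0534). It was called higher after quantile normalization (adjusted p = 0.0488), with an intensity trend (adjusted p = 0.0439) and without PC3-SCR replicate 2 (adjusted p = 0.0240). ESRRB, a factor of embryonic stem cells, was not called (log2 fold change 0.18, adjusted p = 0.112), but was called higher after quantile normalization (adjusted p = 0.0377). NR2E3, NR5A1 and NR0B2 were below the gauge and were not called.

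Genes of receptor coactivators and corepressors changed in both directions too. Of 19 coactivator genes, 18 were measured, and 9 rose, 3 fell and 6 were not called, with a median log2 fold change of 0.35. In this list 66.7% were called, and 17 genes were above the gauge in a group, where 68.5% of all genes were called. NCOA7, an estrogen receptor coactivator, had 7.13 and 7.19 in PC3-PDEF and 5.65 and 5.66, below the gauge, in PC3-SCR, and rose by 1.50 (SE 0.081, adjusted p = 2.63e-05). MED1, the Mediator subunit that receptors contact, had 9.15 and 9.10 in PC3-PDEF and 8.25 and 8.13 in PC3-SCR, and rose by 0.94 (SE 0.087, adjusted p = 0.000224). NCOA4, which also carries ferritin to autophagy, rose by 0.94 and the PGC-1 relative PPRC1 by 0.90. In the corepressor list 3 of 11 measured genes rose, 5 fell and 3 were not called. Here 72.7% were called, and 10 genes were above the gauge in a group, where the share of all genes was 68.5%. The number lower was 3 with the replicate number as a block or without PC3-SCR replicate 1, PC3-SCR replicate 2 or PC3-PDEF replicate 2, and 2 without PC3-PDEF replicate 1. NRIP1 (RIP140), which binds agonist-loaded receptors and represses their targets, had 7.78 and 7.82 in PC3-PDEF and 10.29 and 10.36 in PC3-SCR, and fell by 2.52 (SE 0.082, adjusted p = 4.79e-06). LCOR, another corepressor of agonist-loaded receptors, had 8.29 and 8.35 in PC3-PDEF and 6.97 and 6.89 in PC3-SCR, and rose by 1.39 (SE 0.084, adjusted p = 3.93e-05). TRIM24, a bromodomain cofactor, rose by 1.06. TBL1XR1, part of the NCoR complex, fell by 0.54, with an adjusted p of 0.0507 without PC3-PDEF replicate 1. Of 9 measured chaperone genes, 6 rose, 0 fell and 3 were not called, where 8 were above the gauge in a group and 39.9% of all such genes were higher. PPID rose by 0.97, FKBP4 by 0.86, PTGES3, the p23 gene, by 0.79 and STIP1, the Hop gene, by 0.52, all HSP90 partners that steroid receptors pass through.

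**Figure D4:**
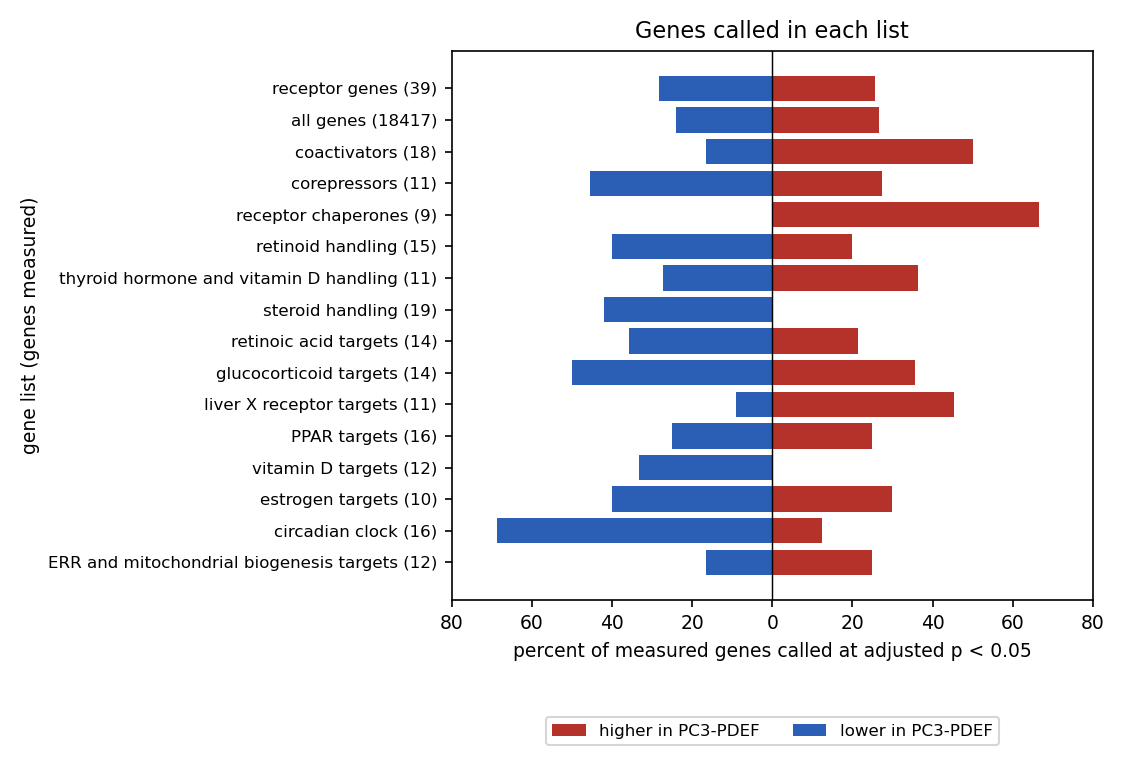
Percent of the measured genes of each list (vertical axis, number measured in brackets) that were called higher (red, right of 0) or lower (blue, left of 0) in PC3-PDEF than in PC3-SCR at an adjusted p under 0.05. The receptor genes, with 10 of 39 higher and 11 lower, lie near the shares of all 18417 genes, the circadian clock reaches farthest to the left with 11 of 16 genes and the receptor chaperones farthest to the right with 6 of 9.

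Across the 14 lists, 179 of 200 distinct genes were measured, and 48 rose and 60 fell (60.3% called, beside 50.7% of all genes and 68.5% of those above the gauge in a group, which 121 of the 179 were). Of the 21 called receptors, 11 were called under every alternative that kept them in the fit. These were PPARA, PPARD, PPARG, RARB, RARG, RXRB, THRA, NR1D1, NR1D2, RORA and NR6A1.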

How the data were processed

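RNA of 2 PC3-PDEF and 2 PC3-SCR samples was measured on Affymetrix arrays. The authors deposited log2 signals of 33297 probe sets, made with Transcriptome Analysis Console per the submitters' processing notes. How the console corrected and normalized signals, and in which version, is not given in the sources used here, and the log base was inferred from the range of values. Array medians were 5.41 to 5.46, and values were used as deposited, so a shift common to all genes would have been removed. The platform annotation named 19460 probe sets by 1 symbol, of which 99.8% were found in the GRCh38.p14 gene table and updated from it, while 1754 carried several symbols and 12083 are unnamed here. The probe set with the highest mean stood for each of 18417 genes. Apart from the background gauge and the summed signals of marker genes, signals of different genes were not compared with each other.

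PC3-PDEF was compared with PC3-SCR by two-sided moderated tests of limma 3.58.1 (lmFit, eBayes; R 4.3.3). The residual degrees of freedom were 2 and the prior ones 4.23. Benjamini-Hochberg adjustment covered all genes, and an adjusted p under 0.05 made a call. Intervals are 95% and use the moderated standard error. Precision is limited by the number of arrays, and an exact two-sided permutation test of 2 arrays against 2 cannot go below 0.333. Across probe sets, which are not independent, r was 0.996 within PC3-PDEF, 0.994 within PC3-SCR and 0.954 to 0.956 between groups.

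The receptor members and the gene lists were chosen with earlier results of these data known. Receptors were taken out of the other lists before counting. Values per array are given for called receptors above the background gauge and for uncalled ones above it in all arrays, and for others where the text turns on them. From each list the 4 called genes with the largest change whose higher group lay above the gauge are named, and others named are widely used readouts or were chosen after their values were seen. Alternatives were quantile normalization, median centring, a filter on dim genes, the mean of a gene's probe sets, an intensity trend, the replicate number as a block and leaving out each array.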

Additional observations from a re-analysis of the deposited data

How the results depend on the processing

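Under quantile normalization, median centring, the mean of probe sets, an intensity trend and the replicate block, 19 to 23 receptor genes were called, close to the 21 reported. Among genes above the median level only, 13 receptors were called, 5 of them higher and 3 changed at least 2-fold, since dim receptors such as NR6A1, RARB and RORA are not in that fit. In fits without 1 of the arrays, 12 to 15 receptors were called, 4 to 7 higher and 7 to 8 lower, and 5 to 8 changed at least 2-fold, while the calls over all genes were 5336 to 6460 in place of 9337. The lowest receptor count, 12, was found without PC3-SCR replicate 1, and the count was 13 without PC3-PDEF replicate 2. Of 1035 gene values compared under the alternatives, 58 no longer passed the threshold, 10 newly passed it and 7 changed sign, the last all in dim receptors that were not called either way. PGR had a log2 fold change of 0.0075 after quantile normalization and NR1I3 of -0.025 after median centring. Across the fits without 1 array, NR1I3 ranged between -0.07 and 0.16, RORB between -0.345 and 0.055, NR2E3 between -0.415 and 0.085 and NR4A2 between -0.005 and 0.225. The groups share replicate numbers, but the labels tie them to no shared batch and the deviations of same-numbered arrays had a correlation of 0.0117 across probe sets. With the replicate number as a block, 19 receptors were called. The background gauge, the highest olfactory receptor gene, is strict, and genes below it may still be expressed. For those genes the array signal limits what a change can show. Across the pathway lists 108 genes were called, 95 with the block, 80 among genes above the median level and 75 to 91 without 1 array. As means of their probe sets, AKR1C1 and ALDH1A3 had log2 fold changes of -2.12 and -2.545, still called lower.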

Other observations

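RXRB and ESR1 also had probe sets that did not stand for their gene. RXRB had 3 probe sets, of which 2 held identical values and the third had 7.37 and 7.40 in PC3-PDEF and 7.88 and 7.89 in PC3-SCR, lower in PC3-PDEF in all cases. How far these share probes was not tested, so they are no independent check of the fall. ESR1 had a second probe set with 3.33 and 3.42 in PC3-PDEF and 3.22 and 3.50 in PC3-SCR, where the groups overlapped, unlike in the probe set reported.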
